A study of Mus musculus with 6 samples.

Results

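The BCL2 family genes that set the threshold for cell death were followed through basophil-lineage cells of mouse bone marrow. The 10 genes were chosen by symbol, with no measured value in the rule, and matched to the tables by gene ID: the pro-survival genes Bcl2, Bcl2l1, Mcl1, Bcl2a1a, Bcl2a1b and Bcl2a1d, the BH3-only genes Bcl2l11 and Bid, and the effectors Bax and Bak1. All 10 were found among 24532 genes listed, and the 3 near-identical Bcl2a1 copies were summed, which left 8 values per library. RNA was sequenced from 6 libraries of sorted C57BL/6J marrow cells, with 2 libraries in each of 3 populations and no treatment. BaP, named basophil precursor in the labels, was lineage-negative, CD34+, c-Kit- and MAR1+. MAR1HI and MAR1INT were both lineage-negative, CD34-, c-Kit- and CD200R3+ and differed in a high or an intermediate level of MAR1, an antibody that binds the IgE receptor through its alpha subunit. The study calls the libraries of a population biological duplicates, and animal numbers, ages and pooling were not given in the sources used here, so p-values measure the spread between these libraries.

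As background, BCL2 family proteins meet on the outer mitochondrial membrane. BAX and BAK1 open it and release cytochrome c, which starts the caspase cascade. BCL2, BCL-XL (from Bcl2l1), MCL1 and A1 (from the Bcl2a1 genes) hold BAX and BAK1 in check, and BH3-only proteins such as BIM (from Bcl2l11) and BID, which senses caspase-8, bind the guardians or the effectors and tip the cell towards death. Basophils are short-lived granulocytes whose survival interleukin 3 can support, and in mouse mast cells A1 is known for keeping cells alive after IgE receptor activation.

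Values are the authors' TPM (a level per transcript length, scaled to the same total in every library), given by library or as mean ± SD (SD, n = 2). Differences are log2 changes of TPM + 1 from limma over 11335 genes, with Benjamini-Hochberg adjusted p and a call at an adjusted p under 0.05. The libraries held 4.75 to 5.28 gigabases of aligned sequence, as implied by the tables, and 9604 to 11544 genes at 1 TPM or more. All 12 basophil markers, Mcpt8 at 2161 to 6416 TPM among them, were detected in every library. From BaP to MAR1HI, 206 genes were called higher and 73 lower, from MAR1HI to MAR1INT 260 and 1640, and from BaP to MAR1INT 1263 and 2309. Quantile normalization made these splits 233 and 174, 787 and 949, and 2301 and 1875. With median-of-ratios scaling they were 134 and 88, 801 and 1228, and 1790 and 2554, and with FPKM 191 and 141, 368 and 1861, and 1214 and 3152. The median gene moved by 0.24, -0.36 and -0.16 (log2) in the 3 comparisons in TPM. The same medians were 0.03, -0.32 and -0.34 in FPKM, 0.02, 0.11 and 0.11 once quantiles were equalized, and -0.04, -0.11 and -0.17 under median-of-ratios scaling. Changes of members are read against these medians.

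Bcl2a1 transcripts, the highest of the family in TPM in BaP, were near the bottom of the range in MAR1HI and were listed at 0 in MAR1INT. In the limma fit above, Bcl2 was called lower and Mcl1 higher between BaP and MAR1INT. The Bcl2 call was lost under some other settings and the Mcl1 call under most of them. Bcl2l1 and the BH3-only and effector members were not called in any comparison of that fit.

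**Figure D1:**
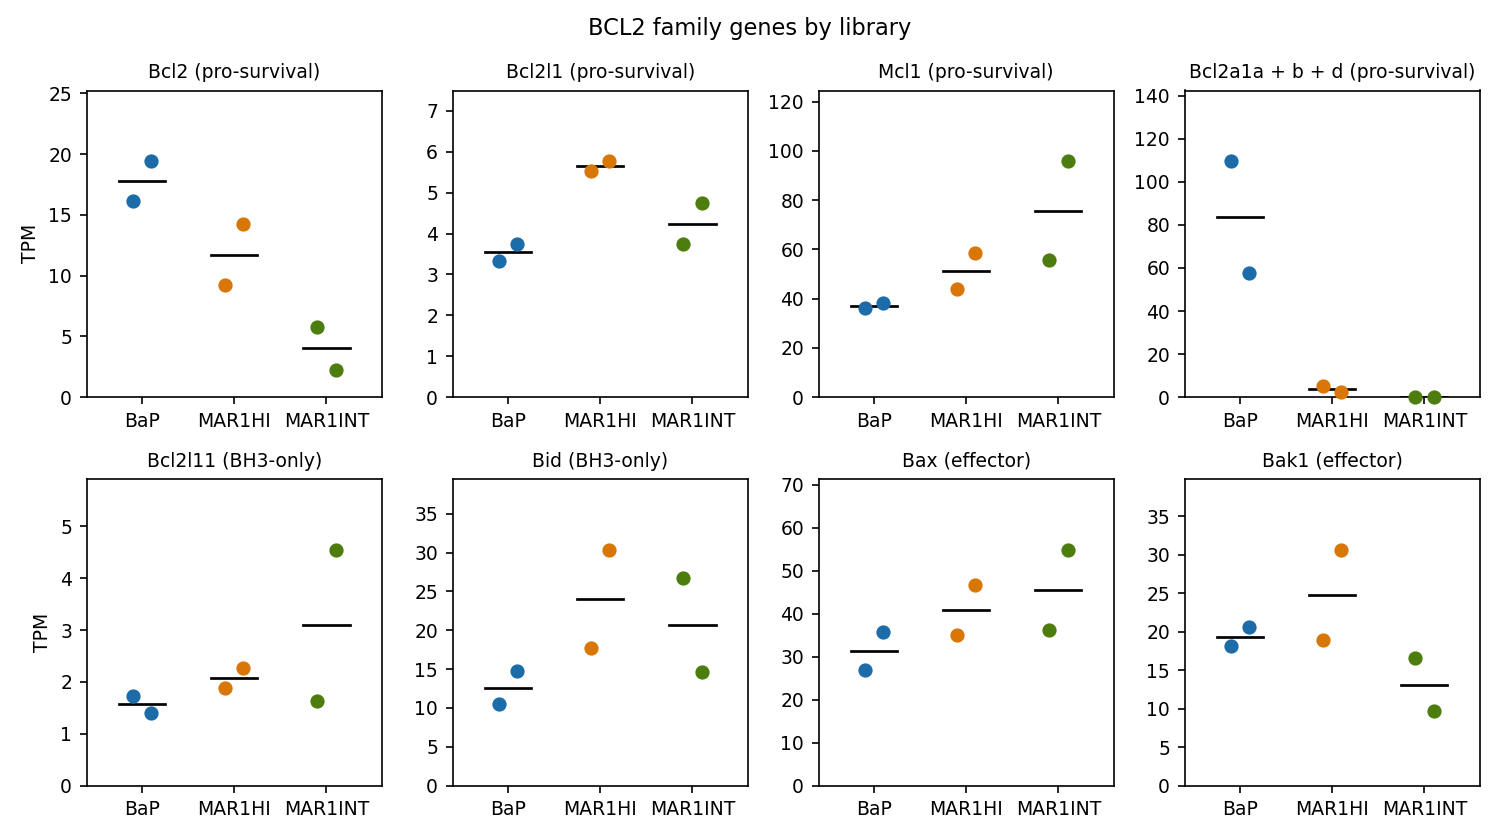
TPM of each BCL2 family gene (y axis, linear from 0, a separate scale per panel) in BaP, MAR1HI and MAR1INT, with 1 point per library and a black line at the mean of each population. The Bcl2a1 panel (sum of 3 copies) drops from 57.6 and 109.6 TPM in BaP to 0 in both MAR1INT libraries, and the Mcl1 panel climbs from 36.2 and 38.2 to 55.5 and 95.8.

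Bcl2a1a, Bcl2a1b and Bcl2a1d encode the mouse A1 proteins. In mm10 they lie on chromosome 9, Bcl2a1d (gene 12047) from 88723288 to 88731850, Bcl2a1a (gene 12044) from 88956920 to 88962416 and Bcl2a1b (gene 12045) from 89199273 to 89207838. Their GENCODE M21 transcripts are so alike that 67.7% of the 50-base windows of Bcl2a1a, 57.6% of those of Bcl2a1b and 79.5% of those of Bcl2a1d occur in another of the 3 copies. A read that lies wholly within shared sequence cannot be placed by that sequence alone, so the level of a single copy is uncertain. How far the copies moved together is uncertain for the same reason. The DNA just upstream is alike as well. The stretches printed next lie before every annotated start of the 3 copies and are shown to compare that DNA. They are RefSeq promoter sequence of GRCm38.p6, 5′ to 3′ on the gene's strand, at chr9:88956714-88956854 (plus strand) for Bcl2a1a, chr9:89199023-89199163 (plus) for Bcl2a1b and chr9:88731916-88732050 (minus) for Bcl2a1d, and capitals mark GAGGAA on the gene's own strand, the core of the binding motif of the myeloid factor PU.1.

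Bcl2a1a: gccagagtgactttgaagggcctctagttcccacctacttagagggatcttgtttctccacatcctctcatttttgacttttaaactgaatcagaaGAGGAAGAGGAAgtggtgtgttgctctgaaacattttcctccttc
Bcl2a1b: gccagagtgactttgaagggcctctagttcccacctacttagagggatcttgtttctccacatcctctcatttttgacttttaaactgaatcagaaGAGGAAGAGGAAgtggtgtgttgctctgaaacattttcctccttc
Bcl2a1d: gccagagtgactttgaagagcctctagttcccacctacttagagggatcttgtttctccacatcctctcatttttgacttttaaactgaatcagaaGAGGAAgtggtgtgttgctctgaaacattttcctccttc

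The Bcl2a1a and Bcl2a1b stretches of 141 bases were identical, and the Bcl2a1d stretch of 135 bases lacked 1 of the 2 marked copies of GAGGAA and had 1 mismatch. Each stretch holds 1 further copy on the other strand, which is not marked. In the standard window, 250 bases before to 50 after a start, GAGGAA on either strand occurred in 28.3% of 32851 RefSeq promoter windows, and among the members in those of all 3 Bcl2a1 copies, Bcl2, Bid and Bak1. The STAT5 motif TTCNNNGAA occurred in 8.3% of windows and in none of the 13 windows of the members. The NF-kappaB consensus, also searched on both strands, occurred in 4.51% of windows and among the members in 1 of the Bcl2l1 windows. Such a match is a description of letters in a window and was not tied to binding here.

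Summed Bcl2a1 stood at 109.6 and 57.6 TPM in BaP (replicates 1 and 2), at 5.04 and 2.25 in MAR1HI, and was listed at 0 in both MAR1INT libraries. The 3 populations did not overlap, and both BaP libraries stood far above the other 4. Bcl2a1b was the highest copy in BaP, with 52.1 and 35.7 TPM, beside 31.1 and 8.20 for Bcl2a1a and 26.4 and 13.7 for Bcl2a1d. In MAR1HI replicate 1 the whole sum was assigned to Bcl2a1b, and in replicate 2 Bcl2a1b held 69.0% of it. The more distant relative Bcl2a1c, at 0.0734 TPM in BaP replicate 1 and listed at 0 elsewhere, is not in the sum.

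The fall of summed Bcl2a1 between BaP and MAR1HI was called (log2 change -4.18, SE 0.49, adjusted p = 0.00524), where 0.644% of all tested genes were called lower. Leaving out BaP replicate 1 (-3.73, adjusted p = 0.0720), MAR1HI replicate 1 (-4.63, 0.0875) or MAR1HI replicate 2 (-3.74, 0.193) ended the call, and so did testing with no filter on low values (0.0859). Over all alternatives the log2 change lay between -4.67 and -3.73. In these bulk libraries, fewer cells that express a gene and less RNA per cell cannot be told apart.

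Summed Bcl2a1 was also called lower in MAR1INT, with an adjusted p of 0.0185 from MAR1HI (14.5% of tested genes were called lower) and of 6.92e-05 from BaP (20.4%). The size of these differences is set by the pseudocount, so no fold is given. An exact 0 in these tables need not mean absence, since 19 genes in MAR1INT replicate 1 and 13 in replicate 2, mitochondrial ribosomal protein genes among them, were listed at 0 in that library alone while the other 5 held 10 TPM or more. The fall from MAR1HI was not called with FPKM (adjusted p = 0.0616), after quantile normalization (0.198), with no filter on low values (0.106), without MAR1HI replicate 1 (0.127) or without MAR1HI replicate 2 (0.0813). The fall from BaP was called under every alternative run, with a highest adjusted p of 0.00881.

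Markers of other marrow leukocytes were lower in part along with Bcl2a1, mostly against BaP. Of all tested genes, 0.644% were called lower from BaP to MAR1HI, 20.4% from BaP to MAR1INT and 14.5% from MAR1HI to MAR1INT. Genes called higher made up 1.82%, 11.1% and 2.29% in the same order. Counts of markers are to be read beside these shares. Of the 12 genes in the list of dendritic cell and MHC class II markers, 4 of 9 tested fell between BaP and MAR1HI and 0 rose, and 7 fell between BaP and MAR1INT. From MAR1HI to MAR1INT 3 fell and 0 rose. Their summed level was 372 to 999.5 TPM in BaP, 64.0 to 77.8 in MAR1HI and 21.7 to 26.2 in MAR1INT. Of the 9 eosinophil markers, 4 of 8 tested fell and 1 rose in MAR1HI, and 5 fell and 2 rose in MAR1INT against BaP. Their sum was 1152 to 2166 TPM in BaP, 109.4 to 158 in MAR1HI and 213 to 349 in MAR1INT, where Siglecf and Ccr3 were the markers that rose. From MAR1HI to MAR1INT, where Bcl2a1 was called lower, 2 eosinophil markers rose and 0 fell. These were again Siglecf and Ccr3, which made up most of the eosinophil sum in MAR1INT (Ccr3 at 131 and 120 TPM). In the monocyte and macrophage list 2 rose, Ccr2 and Adgre1, and 0 fell. What these genes say about the number of such cells was not tested.

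Of the 16 monocyte and macrophage markers, 5 of 13 tested fell and 1 rose in MAR1HI, and 10 fell and 1 rose in MAR1INT against BaP. Their sum was 711 to 1140 TPM in BaP, 470.5 to 564 in MAR1HI and 778 to 877 in MAR1INT. Most of the MAR1INT sum was Ccr2, the marker that rose, from 85.2 and 56.2 TPM in BaP to 618 and 565 in MAR1INT. The order of the sums thus does not describe the other markers of the list. Of the 16 neutrophil markers, 2 fell and 1 rose in MAR1HI, and 6 fell and 1 rose in MAR1INT against BaP, with sums of 6460 to 11900 TPM in BaP, 4261 to 5369 in MAR1HI and 4133 to 4750 in MAR1INT. From MAR1HI to MAR1INT 3 neutrophil markers fell and 1 rose, with falls near the share of all tested genes. Of the 8 mast cell markers 3, Tpsab1, Mcpt1 and Mrgprb1, were at 0 in every library, and 1 of 2 tested, Kit, fell in each of the 3 comparisons. The mast cell sum, nearly all of it Kit, was 40.7 to 45.1 TPM in BaP, 4.08 to 4.89 in MAR1HI and 0.0446 to 0.449 in MAR1INT, although the gate for all 3 populations was c-Kit-.

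Of the 10 T and NK cell markers, 0 of 3 tested were called in MAR1HI against BaP, and in MAR1INT 3 fell against BaP and 1 against MAR1HI. Their sum, nearly all of it Nkg7, was 375 to 387 TPM in BaP, 197 to 199 in MAR1HI and 34.1 to 51.5 in MAR1INT, and Cd3g was at 0 in every library. Of the 9 B and plasma cell markers, 0 of 4 tested were called in any of the 3 comparisons, with sums of 22.7 to 29.4 TPM in BaP, 39.0 to 43.0 in MAR1HI and 14.8 to 30.8 in MAR1INT. Of the 12 erythroid markers, 0 were called in MAR1HI, and in MAR1INT 3 fell against BaP and 1 against MAR1HI, with sums of 1640 to 2449 TPM in BaP, 664 to 1269 in MAR1HI and 1285 to 2820 in MAR1INT. The erythroid falls were near the share of all tested genes. Of the 12 basophil markers, 4 rose and 0 fell in MAR1HI, 6 rose and 4 fell in MAR1INT against BaP, and 1 rose and 3 fell from MAR1HI to MAR1INT.

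In both MAR1INT libraries Epx, Prg3, Ear6 and the untested Il5ra were listed at 0 among the eosinophil markers, and Spic, Fcgr1 and the untested Marco among the monocyte and macrophage markers. Among the dendritic cell and MHC class II markers Ciita, Clec9a and the untested Flt3, Xcr1 and Zbtb46 were listed at 0 there. Other markers of the same lists were present in MAR1INT, with Prg2 at 1.95 and 70.0 TPM, Siglecf at 79.5 and 109.8, Adgre1 at 25.5 and 47.6, Lyz2 at 126 and 92.5, H2-Ab1 at 7.30 and 4.46 and Cd74 at 3.50 and 11.5. Of the falls against BaP in MAR1HI and in MAR1INT, 3 and 3 of the eosinophil list, 2 and 3 of the monocyte and macrophage list, 0 and 2 of the dendritic cell list and 0 and 2 of the T and NK cell list were of genes that passed the filter on low values only through BaP. The part of these cells in the Bcl2a1 result was not tested.

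**Figure D2:**
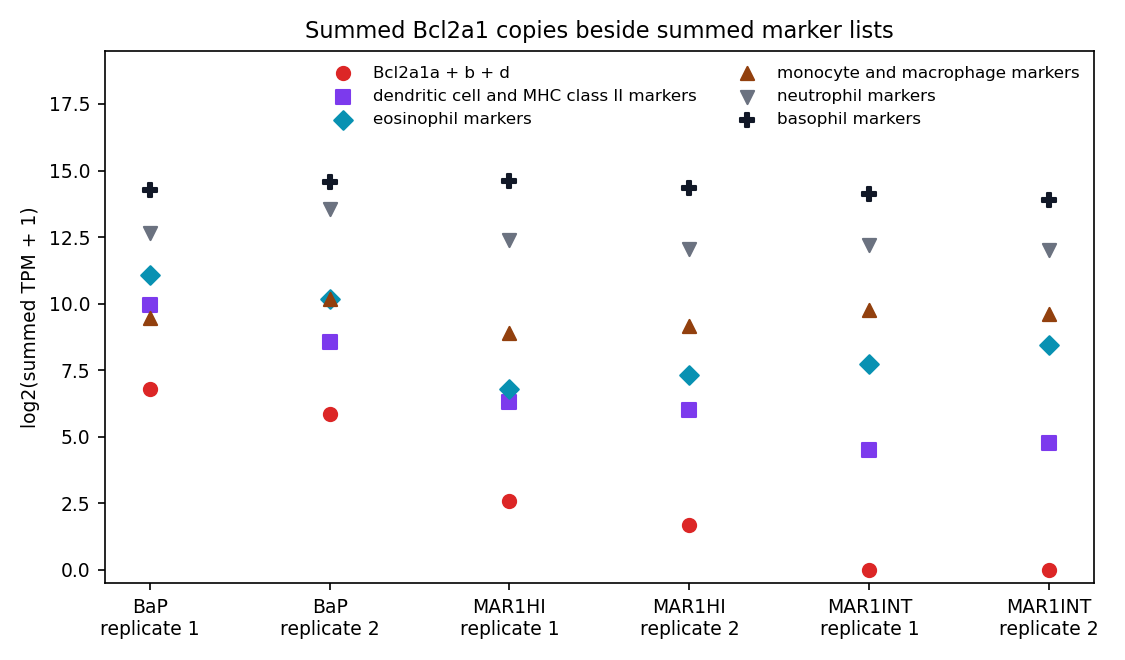
Level of the summed Bcl2a1 copies and of 5 summed marker lists (y axis, log2 of summed TPM + 1) in each of the 6 libraries (x axis), with 1 symbol per library and list. Bcl2a1 and the dendritic cell and MHC class II list step down from BaP to MAR1HI to MAR1INT. The basophil list lies between 19746 and 24754 TPM in BaP and MAR1HI and lower in MAR1INT, at 17673 and 15358.

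Among 8775 genes compared, the closest pattern to summed Bcl2a1 over the 6 libraries, by the root mean square difference of centred log2 values, was that of the MHC class II gene H2-Aa (0.42). H2-Aa stood at 172 and 64.0 TPM in BaP, at 5.52 and 5.68 in MAR1HI and at 0 and 0.952 in MAR1INT. The lectin receptor gene Clec4a3 (0.57; 51.6 and 31.4 TPM in BaP) and the membrane protein gene Tmem176b (0.67; 33.9 and 32.8 TPM in BaP) followed, and both were listed at 0 in the MAR1INT libraries. Both BaP libraries were far above the others for all 3 genes.

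Bcl2 (gene 12043, mm10 chromosome 1, 106538176 to 106714290), the founding member of the family and a guardian of lymphocytes and blood progenitors, stood at 16.1 and 19.4 TPM in BaP, at 9.19 and 14.2 in MAR1HI and at 5.78 and 2.27 in MAR1INT. The populations formed a descending order without overlap. It fell between BaP and MAR1INT (log2 change -1.99, SE 0.47, 95% interval -3.05 to -0.93, adjusted p = 0.0116), but was not called when BaP replicate 1 (adjusted p = 0.0844) or BaP replicate 2 (0.112) was left out or when low values were not filtered (0.0596). The difference from MAR1HI to MAR1INT was not called (-1.40, adjusted p = 0.0721), but was with FPKM (0.0492). Without MAR1INT replicate 1 this difference was -1.93, and without MAR1INT replicate 2 it was -0.88. Between BaP and MAR1HI the log2 change was -0.59 (interval -1.64 to 0.47, adjusted p = 0.561), and 0 of the alternatives called it.

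The nearest patterns to that of Bcl2 belonged to Tgif1, a transcriptional repressor (root mean square difference 0.11), Siae (0.13) and Mdga1 (0.13). Tgif1 stood at 13.7 and 16.1 TPM in BaP, at 6.31 and 12.2 in MAR1HI and at 5.17 and 1.71 in MAR1INT. Like Bcl2, it was lowest in MAR1INT replicate 2.

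Mcl1 (gene 17210, chromosome 3, 95658721 to 95663178), a short-lived guardian needed by many blood cells, stood at 36.2 and 38.2 TPM in BaP, at 44.0 and 58.7 in MAR1HI and at 55.5 and 95.8 in MAR1INT. Both MAR1INT libraries were above both BaP libraries, and MAR1HI overlapped MAR1INT. It rose between BaP and MAR1INT (log2 change 0.95, SE 0.32, 95% interval 0.24 to 1.67, adjusted p = 0.0459), where 11.1% of tested genes were called higher. This call was near the threshold: it was lost under 10 of 14 alternatives (adjusted p from 0.0562 to 0.282), among them the omission of any 1 library other than MAR1INT replicate 1. Without MAR1INT replicate 2 the change was 0.57, and without MAR1INT replicate 1 it was 1.34. The changes from BaP to MAR1HI (0.44, interval -0.27 to 1.15) and from MAR1HI to MAR1INT (0.51, interval -0.20 to 1.22) were not called.

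The closest patterns to that of Mcl1 were those of the zinc finger gene Zfp524 (root mean square difference 0.08), the dynein subunit gene Dync1li1 (0.11) and Tmem164 (0.13). Zfp524 stood at 11.5 and 12.1 TPM in BaP, at 14.6 and 19.9 in MAR1HI and at 20.7 and 35.5 in MAR1INT. All 3, like Mcl1, were highest in MAR1INT replicate 2.

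Bcl2l1 (gene 12048, chromosome 2, 152758732 to 152831728), which encodes BCL-XL, a guardian known for platelets and late red cell precursors, stood at 3.34 and 3.74 TPM in BaP, at 5.52 and 5.77 in MAR1HI and at 3.74 and 4.73 in MAR1INT. Both MAR1HI libraries were above the other 4. The change was 0.55 from BaP to MAR1HI (interval -0.37 to 1.47, adjusted p = 0.526), -0.35 from MAR1HI to MAR1INT (-1.27 to 0.57, 0.611) and 0.20 from BaP to MAR1INT (-0.72 to 1.12, 0.742), none of them called. The last was called after quantile normalization (0.96, adjusted p = 0.0475), which also turned the change from MAR1HI to MAR1INT to 0.40. Its level is uncertain, since its FPKM was 19.2 to 25.3 times what its coverage of 0.462 to 0.696 reads per base gives for most genes of the library. That ratio was 1.60 to 2.35 for Bcl2l11, 1.67 to 2.29 for Bcl2 and 1 for the other members.

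The mix of guardian transcripts differed between the populations. The 4 values (Bcl2, Bcl2l1, Mcl1 and summed Bcl2a1) stood at a sum of 165 and 119 TPM in BaP, at 63.7 and 81.0 in MAR1HI and at 65.0 and 102.8 in MAR1INT. Bcl2a1 made up 66.3% and 48.4% of the sum in BaP, and 7.91% and 2.78% in MAR1HI. Mcl1 made up 21.9% and 32.1% in BaP, then 69.0% and 72.5% in MAR1HI and 85.4% and 93.2% in MAR1INT. Without overlap, the Mcl1 share was lowest in BaP and highest in MAR1INT. A share of Mcl1 rises where Bcl2a1 drops out of the same sum, and Mcl1 itself was not called between BaP and MAR1HI (log2 change 0.44). The Bcl2 share was 9.77% and 16.3% in BaP, then 14.4% and 17.6% in MAR1HI and 8.89% and 2.21% in MAR1INT. There were 2.24 and 1.97 Mcl1 transcripts per Bcl2 transcript in BaP, then 4.78 and 4.13 in MAR1HI and 9.60 and 42.2 in MAR1INT. No test was run on these shares and ratios, which are descriptions. They hold for TPM and are not counts of molecules, since how evenly the library kit took up different genes was not tested.

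**Figure D3:**
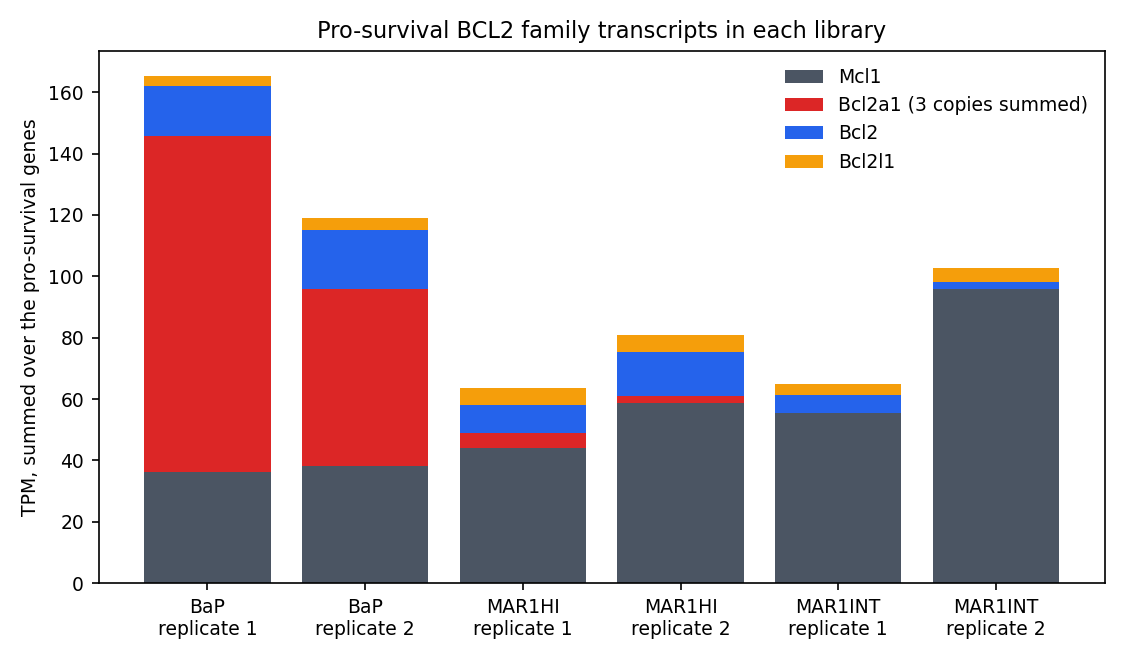
Summed TPM of the pro-survival genes (y axis, linear from 0) in each library (x axis), stacked by gene. The Bcl2a1 block fills 66.3% and 48.4% of the BaP bars and is absent from the MAR1INT bars, where Mcl1 fills 85.4% and 93.2%.

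The BH3-only members were not called in any comparison. Bid (gene 12122, chromosome 6, 120893119 to 120916820) stood at 10.4 and 14.8 TPM in BaP, at 17.7 and 30.4 in MAR1HI and at 26.7 and 14.7 in MAR1INT. Both MAR1HI libraries were above both BaP libraries, and MAR1INT overlapped both populations. The change from BaP to MAR1HI was 0.85 (interval -0.11 to 1.80, adjusted p = 0.343), from MAR1HI to MAR1INT -0.22 (-1.17 to 0.74, 0.778) and from BaP to MAR1INT 0.63 (-0.33 to 1.59, 0.288).

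Bcl2l11 (gene 12125, chromosome 2, 128126038 to 128162547) had the lowest mean of the 8 values in BaP and MAR1HI and stood at 1.73 and 1.40 TPM in BaP, at 1.89 and 2.26 in MAR1HI and at 1.64 and 4.55 in MAR1INT. MAR1INT replicate 2 was above all other libraries, and MAR1INT replicate 1 lay within the BaP range. The change from BaP to MAR1INT was 0.58 (interval -0.48 to 1.63, adjusted p = 0.380). After quantile normalization it was 1.59 and was called (0.0181). The nearest patterns were those of Lsm10 (root mean square difference 0.06), Lst1 (0.10) and Sdf4 (0.12), each of which was highest in MAR1INT replicate 2.

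The effectors were not called either. Bax (gene 12028, chromosome 7, 45461695 to 45466898) stood at 27.0 and 35.8 TPM in BaP, at 35.0 and 46.8 in MAR1HI and at 36.1 and 54.9 in MAR1INT. The ranges of MAR1HI and MAR1INT overlapped, and so did those of BaP and MAR1HI, while both MAR1INT libraries were above both BaP libraries. The change from BaP to MAR1INT was 0.51 (interval -0.22 to 1.23, adjusted p = 0.261), from BaP to MAR1HI 0.37 (-0.35 to 1.10, 0.594) and from MAR1HI to MAR1INT 0.14 (-0.59 to 0.86, 0.820).

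Bak1 (gene 12018, chromosome 17, 27019812 to 27028626) stood at 18.2 and 20.5 TPM in BaP, at 18.9 and 30.6 in MAR1HI and at 16.6 and 9.66 in MAR1INT. MAR1INT was below all other libraries. The change from MAR1HI to MAR1INT was -0.87 (interval -1.76 to 0.02, adjusted p = 0.169). Without MAR1INT replicate 1 this change was -1.23, and without MAR1INT replicate 2 it was -0.51. From BaP to MAR1INT it was -0.57 (-1.46 to 0.32, 0.303) and from BaP to MAR1HI 0.30 (-0.58 to 1.19, 0.731). Bax made up 59.8% and 63.5% of the summed effector transcripts in BaP, then 65.0% and 60.4% in MAR1HI and 68.5% and 85.0% in MAR1INT. Guardian transcripts per effector transcript numbered 3.66 and 2.11 in BaP, then 1.18 and 1.05 in MAR1HI and 1.23 and 1.59 in MAR1INT, so both BaP libraries were above the other 4. Without Bcl2a1 the ratios were 1.23 and 1.09 in BaP, then 1.09 and 1.02 for MAR1HI and 1.23 and 1.59 for MAR1INT, and BaP did not stand apart.

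**Figure D4:**
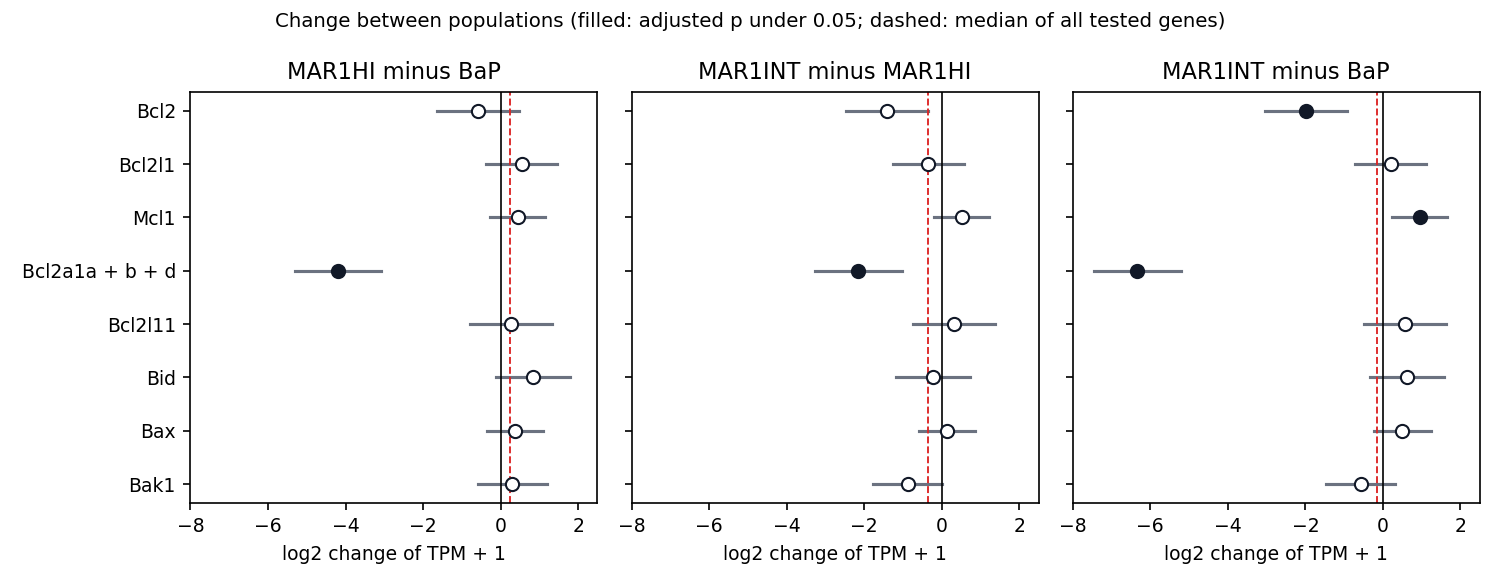
Log2 change of TPM + 1 (x axis) for the 8 member values (y axis) in the 3 comparisons, with limma's 95% intervals as lines, filled points for an adjusted p under 0.05 and a dashed line at the median of all tested genes. Filled points are Bcl2a1 in all 3 panels and Bcl2 (-1.99) and Mcl1 (0.95) between BaP and MAR1INT; the size of the Bcl2a1 points against MAR1INT depends on the pseudocount.

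Of the 8 member values, 1 was called lower and 0 higher between BaP and MAR1HI, where 2.46% of all tested genes were called. Between MAR1HI and MAR1INT 1 was called lower and 0 higher, against 16.8% of all genes. Between BaP and MAR1INT 2 were called lower and 1 higher, against 31.5%. The median log2 change of the 8 was 0.34, -0.28 and 0.35. Before summing all 10 genes passed the filter on low values, Bcl2a1a and Bcl2a1d through the BaP libraries alone.

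Ordered by mean level, the genes of BaP ran from Bcl2a1 (83.6 ± 36.7 TPM) through Mcl1 (37.2 ± 1.40), Bax (31.4 ± 6.23), Bak1 (19.4 ± 1.68), Bcl2 (17.8 ± 2.30), Bid (12.6 ± 3.09) and Bcl2l1 (3.54 ± 0.286) to Bcl2l11 (1.57 ± 0.232). Of these neighbours only Bak1 and Bcl2 overlapped. Such orders hold for TPM, and how evenly the library kit took up different genes was not tested. In MAR1HI the order was Mcl1 (51.3 ± 10.4), Bax (40.9 ± 8.36), Bak1 (24.8 ± 8.31), Bid (24.0 ± 8.95), Bcl2 (11.7 ± 3.56), Bcl2l1 (5.64 ± 0.175), Bcl2a1 (3.64 ± 1.97) and Bcl2l11 (2.07 ± 0.266), and Mcl1 with Bax, Bak1 with Bid, and Bcl2a1 with Bcl2l11 overlapped. In MAR1INT Mcl1 (75.6 ± 28.5) stood above Bax (45.5 ± 13.3), Bid (20.7 ± 8.48), Bak1 (13.1 ± 4.89), Bcl2l1 (4.24 ± 0.704), Bcl2 (4.03 ± 2.48) and Bcl2l11 (3.09 ± 2.06), and Bid with Bak1, Bcl2l1 with Bcl2, and Bcl2 with Bcl2l11 overlapped.

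Relatives of the family were tested in the same fit. Bcl2l2, which encodes the guardian BCL-W, stood at 3.45 ± 0.118 TPM in BaP, 1.26 ± 0.589 in MAR1HI and 0.309 ± 0.110 in MAR1INT. This gene was called between BaP and MAR1INT, but passed the filter on low values only with the BaP libraries, where it was high. The other guardian gene Bcl2l10, Bcl2a1c and the effector gene Bok did not reach 1 TPM in any library and were not tested. Of 5 tested BH3-only genes other than the members, Bbc3, which encodes the p53 target PUMA, rose from 1.90 and 1.08 TPM in BaP through 2.94 and 3.47 in MAR1HI to 8.75 and 6.71 in MAR1INT. The populations did not overlap, and the rise from BaP to MAR1INT was called (1.82, SE 0.43, adjusted p = 0.0112).

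Bik stood at 0.491 and 0.902 TPM in BaP and 2.03 and 2.04 in MAR1HI and was listed at 0 in MAR1INT. It passed the filter on low values only through MAR1HI, where it was high, so its call between MAR1HI and MAR1INT is not read as a change, and the same holds for Bcl2l15. Bad, a BH3-only gene controlled by phosphorylation, stood at 31.6 ± 0.104 TPM in BaP, 37.4 ± 5.20 in MAR1HI and 40.8 ± 6.41 in MAR1INT without a call, and Bmf (0.515 to 2.16 TPM) and Pmaip1 (0.0914 to 1.62 TPM) were low in all libraries. Among 7 tested BCL2-related genes, the mitophagy receptor Bnip3l rose from 66.5 ± 1.98 TPM in BaP to 137.8 ± 13.9 in MAR1INT (1.04, adjusted p = 0.00774), and Bcl2l12 fell from 14.5 ± 1.64 to 3.93 ± 0.598 (-1.65, 0.0111) and also from MAR1HI (-1.66, 0.0193). Bcl2l15 stood at 3.52 and 0.212 TPM in BaP and 14.8 and 6.84 in MAR1HI and was listed at 0 in MAR1INT. Bcl2l13, Bnip3, Becn1 and Bclaf1 were not called, at 5.50 to 10.3, 8.60 to 18.2, 37.2 to 71.1 and 98.1 to 133.7 TPM over the 6 libraries, and Bcl2l14 and Hrk did not pass the filter.

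Downstream of the mitochondria lie the release factors and caspases. In the list of apoptosome, caspase and mitochondrial release genes, 0 of 13 were called in MAR1HI against BaP, 2 fell and 0 rose from MAR1HI to MAR1INT, and 4 fell and 0 rose from BaP to MAR1INT (median -0.31, beside -0.16 for all tested genes). Of all tested genes, 14.5% and 20.4% were called lower in the last comparisons, so these counts are near the share of all genes. Cycs, which encodes the cytochrome c that triggers the apoptosome and carries electrons in respiration, fell from 121 ± 47.8 TPM in BaP and 74.1 ± 0.323 in MAR1HI to 28.3 ± 2.72 in MAR1INT (-2.00 from BaP, adjusted p = 0.00131). Endog, a mitochondrial nuclease counted among the 4, stood at 3.27 and 1.56 TPM in BaP and 0.283 and 0.702 in MAR1HI, was listed at 0 in MAR1INT, and passed the filter only through BaP, where it was high. Aifm1 was called lower in MAR1INT (adjusted p = 0.0266 against BaP), but stood at 8.64 TPM in 1 library and was listed at 0 in the other.

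A few inhibitor of apoptosis genes were called, in both directions. Of 9 tested, 1 rose in MAR1HI against BaP, 1 fell from MAR1HI to MAR1INT, and 2 rose and 1 fell from BaP to MAR1INT. Of all tested genes, 2.46%, 16.8% and 31.5% were called in these comparisons, so the counts in MAR1INT are near the share of all genes. Birc3, a ubiquitin ligase of NF-kappaB signalling, rose from 20.3 and 27.3 TPM in BaP through 39.0 and 57.5 in MAR1HI to 82.1 and 58.4 in MAR1INT (1.51 from BaP, adjusted p = 0.00682). Naip2, an inflammasome sensor that shares sequence with its Naip neighbours and is uncertain in level, rose from 71.1 ± 9.71 in BaP to 193.5 ± 64.8 in MAR1HI (1.40, adjusted p = 0.0463) and stood at 170.5 ± 49.8 in MAR1INT. Birc5, which encodes survivin and is used in mitosis, stood at 98.8 ± 13.3 and 115 ± 10.6 TPM in BaP and MAR1HI and at 2.58 and 0 in MAR1INT (adjusted p = 0.000123 against BaP). The size of that fall depends on the pseudocount, so no fold is given.

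Of 10 genes of death receptors and the caspase-8 complex, which can act through Bid, 0 were called in MAR1HI against BaP, and 1, Fas, was lower in MAR1INT in both comparisons. Fas stood at 1.65 and 6.41 TPM in BaP and 11.3 and 11.1 in MAR1HI, and was listed at 0 in MAR1INT (adjusted p = 0.00218 against MAR1HI and 0.0138 against BaP). Of 10 channel and partner genes, 1 fell from MAR1HI to MAR1INT and 2 from BaP to MAR1INT, and none of the 10 rose in any of the 3 comparisons. These were Vdac3, a pore of the outer mitochondrial membrane (111 ± 10.9 TPM in BaP and 66.1 ± 0.714 in MAR1INT, -0.74, adjusted p = 0.0463), and the chaperone partner Bag3 (9.69 ± 0.352 and 2.57 ± 2.98, -1.89, 0.0434). Of all tested genes, 14.5% were called lower from MAR1HI to MAR1INT and 20.4% from BaP to MAR1INT. Falls in both lists were near or below these shares. In the list of 9 genes of MCL1 turnover and translation, Tpt1 was the 1 called, higher in MAR1INT (5995 ± 241.5 TPM) than in BaP (3966 ± 53.7, 0.60, adjusted p = 0.0330) and MAR1HI (3402 ± 579, 0.83, 0.0149).

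Among 10 tested p53 and FOXO regulators, 0 were called in MAR1HI against BaP, 2 fell from MAR1HI to MAR1INT, and 2 rose and 1 fell from BaP to MAR1INT. The last counts are near the share of all tested genes, of which 16.8% and 31.5% were called in these comparisons. Foxo1, a factor known to induce Bcl2l11 and Bbc3, rose from 6.69 and 5.51 TPM in BaP through 17.0 and 23.5 in MAR1HI to 43.1 and 38.5 in MAR1INT (2.56 from BaP, adjusted p = 0.000768). Its relative Foxo3 rose from 22.0 ± 2.60 to 51.6 ± 5.43 (1.20, 0.0183). Chek2, a DNA damage kinase, stood at 48.0 ± 5.07 and 50.4 ± 12.4 in BaP and MAR1HI and fell to 7.10 ± 2.54 in MAR1INT (-2.63 from BaP, adjusted p = 0.000703). Atm fell from 21.7 ± 7.53 in MAR1HI to 8.17 ± 0.000212 in MAR1INT (-1.27, 0.0481).

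In NF-kappaB and survival signalling 2 of 17 tested genes rose in MAR1HI against BaP, 3 from MAR1HI to MAR1INT and 7 from BaP to MAR1INT, with 0 falls in each (medians 0.65, 0.34 and 0.71, beside 0.24, -0.36 and -0.16 for all tested genes). Of all tested genes, 1.82%, 2.29% and 11.1% were called higher in these comparisons. Csf2rb, the shared beta chain of the interleukin 3, interleukin 5 and GM-CSF receptors, rose from 264 and 350.2 TPM in BaP through 629 and 743 in MAR1HI to 1584 and 1527 in MAR1INT (2.35 from BaP, adjusted p = 9.03e-05). Csf2rb2, its near-identical neighbour specific to interleukin 3, rose from 110 ± 15.2 to 276 ± 12.9 and 734 ± 24.2, and reads of this gene and Csf2rb may have been split between them. The survival kinase gene Pim1 rose from 47.9 ± 5.45 in BaP to 177 ± 1.07 TPM in MAR1INT (1.87, adjusted p = 0.000725), and Pim2 from 1.85 ± 0.616 to 13.8 ± 2.73 (2.38, 0.00280). The NF-kappaB subunit gene Rela (0.99, adjusted p = 0.0218), its relative Nfkb2 (1.03, 0.0465) and Stat5b (1.08, 0.0209) rose as well.

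Over the 11 lists, 91 genes other than the members were tested: 3 rose and 0 fell from BaP to MAR1HI, 4 rose and 10 fell from MAR1HI to MAR1INT, and 14 rose and 11 fell from BaP to MAR1INT. Of these falls, 2 of the 10 and 2 of the 11 were of genes that passed the filter only through the population in which they were high. Of all tested genes, 2.46%, 16.8% and 31.5% were called in these comparisons, so the totals over both directions are near the share of all genes. From BaP to MAR1INT, 11.1% of all tested genes were called higher and 20.4% lower. The lists were not alike, and 7 of the 14 rises in that comparison were in NF-kappaB and survival signalling.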

How the data were processed

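The submitters' processing notes name Trimmomatic, HISAT2 and StringTie as tools and mm10 as the genome build, with no order. Versions, options and annotation were not given in the sources used here. Per the file headers, each library's table holds the authors' coverage (signal, mean reads per base), FPKM and TPM for each gene. The deposited TPM sum to 1000000 per library. No read counts were used here, so depth is known only as the aligned bases that FPKM and coverage imply, and no counting interval is given. Library preparation used a SureSelectXT RNA direct kit per the labels' protocols. Strand use in counting was not stated, and the genes that overlap members (Cox4i2, Ggnbp1 and Mir3473f) stood under 1 TPM in every library.

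Gene IDs were joined to RefSeq symbols (GRCm38.p6; 24462 of 24532 matched), and parts of a gene were summed. Genes with TPM of 1 or more in at least 2 libraries entered limma 3.58.1 (R 4.3.3) on the log2(TPM + 1) scale, with a trend, 1 term per group and 3 residual degrees of freedom (median prior 6.39). The fit was tested on simulated data. Alternatives were pseudocount 0.1, no filter or a mean TPM of 5, FPKM, quantile normalization, median-of-ratios scaling, fits of 2 groups, a replicate block, omission of each library and Bcl2a1c in the sum. The members, the 11 pathway and 9 marker lists (213 of 215 names were found) and the tests were chosen with earlier results of these data known. Every member was named. Called genes of the pathway lists were named, up to the 4 largest changes per list and comparison, and further ones were chosen after their values were seen. Of these, 1 called gene is not reported here. For patterns the 3 nearest genes with a mean TPM of 5 or more were named. Python 3.11.15 with pandas 2.3.3, numpy 2.4.6 and matplotlib 3.10.9 made tables and figures.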

Additional observations from a re-analysis of the deposited data

How the results depend on the processing

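Numbers of called genes moved by over 1.5 times under some settings. Between MAR1HI and BaP 279 were called as reported, 87 with pseudocount 0.1, 4 with no filter on low values and 1060 with only the 2 groups compared, and leaving out 1 library gave 3 to 1089. Between MAR1INT and MAR1HI 1900 were called, 562 with no filter, and 239 to 2611 without 1 library. Between MAR1INT and BaP 3572 were called, 2353 with no filter, and 1579 to 4023 without 1 library. With a replicate block 208, 1760 and 3391 genes were called, and no call of a member changed. The replicate numbers were not shown to pair libraries: deviations of same-numbered libraries correlated at 0.15, -0.09 and -0.06 across genes. A single library left in a population is assumed to vary like the others. Without a MAR1INT library, and in some fits of 2 groups, limma took each gene's spread wholly from the trend over genes. Calls gained in those fits are thus not an effect of the omission alone.

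Several uncalled member changes turned sign. From MAR1HI to MAR1INT, Bid was 0.16 after quantile normalization, 0.062 with median-of-ratios scaling, and between -0.63 and 0.19 without 1 library; Bcl2l1 was 0.40 after quantile normalization. Without 1 library Bax lay between -0.16 and 0.43 and Bcl2l11 between -0.22 and 0.85. From BaP to MAR1HI, Bak1 lay between -0.031 and 0.64 without 1 library. The causes were not tested. Bcl2l1 and Bcl2l11 were not tested at a mean TPM of 5 or more, which they did not reach. Among the members, changes under about 1 (log2) had intervals that held 0, apart from Mcl1 between BaP and MAR1INT.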
